A study of Mus musculus with 43 samples.

Results

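The p53 pathway and apoptosis genes described here are 10 mouse genes taken by symbol: Trp53, Mdm2, Cdkn1a, Bax, Bbc3, Pmaip1, Fas, Bcl2l11, Trp53inp1 and Btg2. All 10 had a value in each of 3 tables, which held 35815 to 35842 usable gene symbols. The 43 RNA-seq libraries came from mouse full-grown oocytes and morulae. Some were wild type, and the others were mutants or maternal mutants of Polycomb genes, in part together with Mll2. Polycomb repressive complex 1 (PRC1) is the enzyme that ubiquitinates histone H2A, variant forms of it contain PCGF1 or PCGF6, and MLL2, encoded by Kmt2b, methylates histone H3 at lysine 4. The first oocyte set had 2 PRC1 catalytic-dead libraries (PRC1-CD) and 2 wild-type libraries (PRC1-WT), each from 10 pooled oocytes. The second oocyte set had 3 libraries of the Pcgf1/6/Mll2 triple knockout (TKO), 3 of the Pcgf1/6 double knockout (DKO) and 3 of wild type (WT). The morulae were 10 maternal triple knockouts (matTKO), 10 maternal double knockouts (matDKO) and 10 WT. The alleles, the Cre driver, the strain and the age of the females are not given in the sources used here, nor is the number of oocytes or embryos in each library of the second set and of the morulae. In PRC1-CD replicate 2 the tissue label says embryo, while its title and stage say oocyte.

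The protein p53, the product of Trp53, is a transcription factor that is stabilised after DNA damage and other stress, and MDM2, itself a p53 target, marks it for degradation. Some targets of p53 halt the cell cycle, as Cdkn1a (p21) and Btg2 do, and others lead to cell death through the mitochondria. There BH3-only proteins such as PUMA (Bbc3), NOXA (Pmaip1) and BIM (Bcl2l11) set BAX free to act. In resting mouse oocytes the relative TAp63 takes the place of p53 as the sensor of DNA damage and acts through PUMA and NOXA. Fas is a death receptor at the cell surface, which starts apoptosis through caspase 8.

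The promoters bear on the comparison because both kinds of protein read DNA letters there: p53 binds a motif made of paired 10-base sites, and the variant PRC1 complexes are known to be brought to CG-rich promoters, PRC1.1 through KDM2B and PRC1.6 through DNA-binding partners of the E2F and E-box kind. RefSeq windows on GRCm38.p6 were found for 8 of the 10 members, 12 windows in all, and the 250 bases before each start were searched on both strands. Of all 32851 windows of this length 7.13% held a match to the 10-base p53 site, known as the p53 half-site. Windows of Trp53, Mdm2, Cdkn1a and Bax held one, and that of the upstream Cdkn1a start held 2, as did 0.259% of all windows. The 4 stretches below carry these matches in capitals, each with 25 bases on either side.
Cdkn1a, chr17:29090881-29090962, plus strand: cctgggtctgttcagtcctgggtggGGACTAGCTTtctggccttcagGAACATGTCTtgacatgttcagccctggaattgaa
Mdm2, chr10:117710910-117710969, minus strand: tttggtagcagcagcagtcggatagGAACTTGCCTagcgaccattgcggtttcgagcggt
Trp53, chr11:69580259-69580318, plus strand: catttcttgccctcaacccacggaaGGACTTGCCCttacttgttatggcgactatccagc
Bax, chr7:45467065-45467124, minus strand: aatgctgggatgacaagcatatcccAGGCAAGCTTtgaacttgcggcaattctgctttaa
The Cdkn1a matches begin 73 and 51 bases before the upstream start, which lies 2790 bases from the other annotated start. These are matches of letters only, and no binding was measured in the series.

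CG dinucleotides, the feature KDM2B reads, numbered 27 in the 250 bases before the start of Btg2 and 11 before that of Fas, against a median of 6 over all windows. Btg2 and Fas are shown because Btg2 was called higher in every oocyte mutant against its wild type and Fas in PRC1-CD oocytes. Cdkn1a too was called higher in every oocyte mutant, and the CG counts of its windows are given below. The CG pairs are in capitals.
Btg2, chr1:134079156-134079405, minus strand: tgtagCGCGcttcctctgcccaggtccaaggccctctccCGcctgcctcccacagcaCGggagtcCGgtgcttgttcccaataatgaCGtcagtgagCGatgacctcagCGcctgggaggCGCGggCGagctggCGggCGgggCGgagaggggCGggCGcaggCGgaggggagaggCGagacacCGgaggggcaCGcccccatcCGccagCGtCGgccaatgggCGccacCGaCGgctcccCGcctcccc
Fas, chr19:34290409-34290658, plus strand: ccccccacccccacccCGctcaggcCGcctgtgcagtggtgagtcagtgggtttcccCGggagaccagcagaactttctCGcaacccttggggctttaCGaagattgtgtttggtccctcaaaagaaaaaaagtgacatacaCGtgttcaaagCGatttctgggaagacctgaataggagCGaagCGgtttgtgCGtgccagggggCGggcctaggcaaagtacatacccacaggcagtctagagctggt
The Btg2 window stood at the 91.9 percentile of all windows for CG pairs and the Fas window at the 65.5 percentile. The Mdm2 window held 29 CG pairs, the 3 Bbc3 windows 23 to 37, the Bcl2l11 windows 24 and 30 and the Bax window 14. The Trp53 window held 9, and those of the upstream and the other Cdkn1a start 2 and 19 (23.9 and 81.2 percentiles). Whether CG pairs relate to the members' changes was not tested. The E-box CACGTG occurred in a window of Bax, of Bbc3 and of Fas, and in 6.02% of all windows. The E2F motif GCGGGAA or its reverse complement occurred in a Bbc3 window, and in 3.82% of all windows.

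The targeted genes and the cell type markers were read first. All 10 markers of oocytes, Zp3, Gdf9 and Dppa3 among them, had a mean of at least 1 in every oocyte group. Pcgf1 had a mean of 12.2 RPKM, a read count divided by transcript length and by library size, in TKO and 12.3 RPKM in DKO oocytes, against 1108 RPKM in WT. Pcgf6 had 72.2 RPKM in TKO and 57.1 RPKM in DKO, against 154 RPKM in WT, and Kmt2b had 1.14 RPKM in TKO and 3.90 RPKM in DKO, against 4.85 RPKM in WT. Values in morulae are in TPM (scaled to length and then to a fixed library total). There Pcgf1 had a mean of 14.9 TPM in matTKO and 9.94 TPM in matDKO, against 23.4 TPM in WT. Pcgf6 had 17.6 TPM in matTKO and 20.3 TPM in matDKO, against 23.0 TPM in WT. Kmt2b had 6.87 TPM in matTKO and 9.55 TPM in matDKO, against 6.69 TPM in WT. The catalytic-dead state has no such check, since the change it names need not alter RNA amounts. The kit does not mark the strand, and Bax shares 192 exon bases with the gene model Gm45808 and Cdkn1a 273 with AC167363.2 on the other strand. Neither of these models is in the tables, so their reads may count towards the members.

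In PRC1-CD oocytes 4 of the 9 tested members were higher and 0 were lower than in PRC1-WT oocytes. They were the death receptor gene Fas, the NOXA gene Pmaip1, the antiproliferative gene Btg2 and the p21 gene Cdkn1a. Over all 13376 genes tested, 17.3% were called higher and 5.61% lower, and 12% and 11.5% after quantile normalization. A call was an adjusted p under 0.05 from limma on log2(RPKM + 1). The median log2 change was 0.67 over the 9 members and 0.04 over all genes. Fas, Pmaip1 and Cdkn1a averaged under 1 RPKM in PRC1-WT oocytes and entered the test only because PRC1-CD oocytes were above that level, so neither the count nor the median speaks for the group. Whether the replicates stem from different females is not stated, so every p-value rests on a spread between samples that may be technical. In pooled cells, more cells with a transcript and more transcript per cell cannot be told apart.

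**Figure D1:**
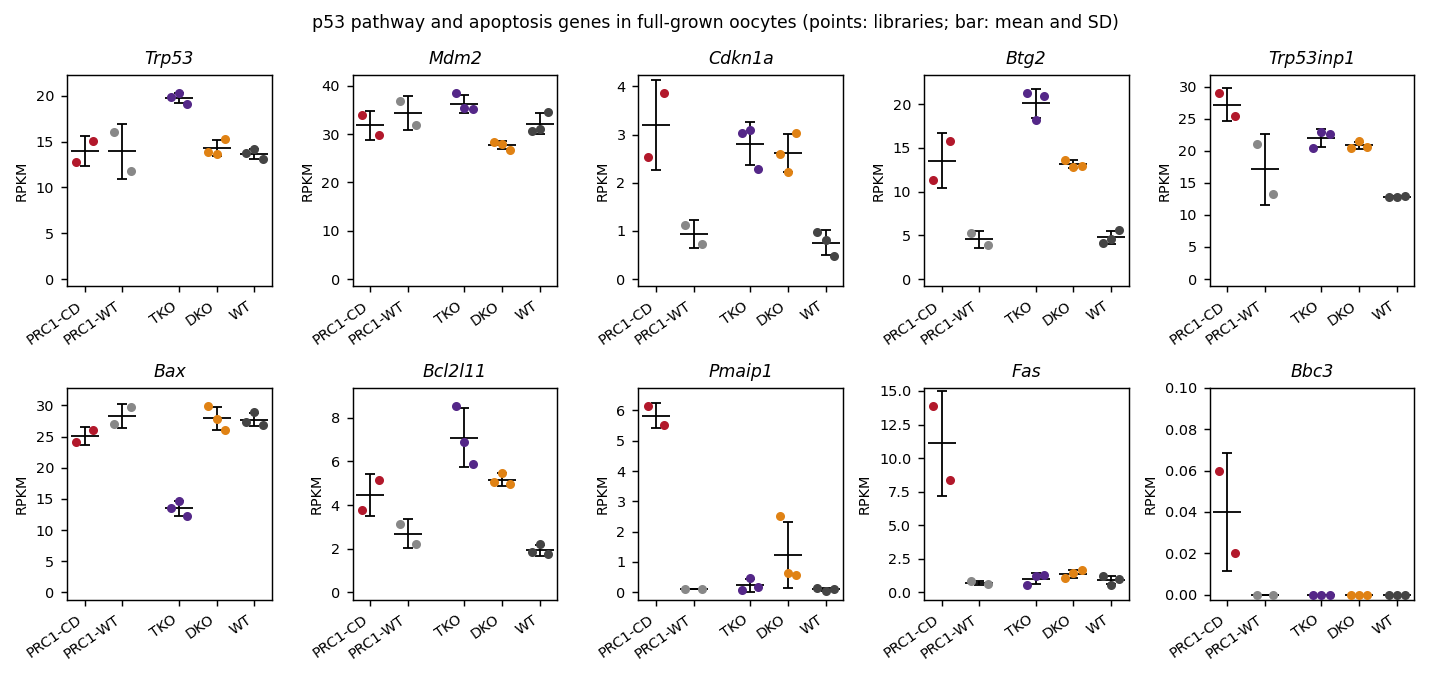
RPKM (vertical axis, from 0) of the 10 members in each full-grown oocyte library, with PRC1-CD and PRC1-WT at the left of each panel and TKO, DKO and WT at the right; points are libraries and bars give the mean and SD. Fas and Pmaip1 are above 5 RPKM only in PRC1-CD libraries, Bax is under 15 RPKM only in TKO libraries, and Btg2 is above 11 RPKM in every mutant library.

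Trp53 itself had 12.78 and 15.08 RPKM in PRC1-CD libraries, against 16.06 and 11.80 RPKM in PRC1-WT libraries. The groups overlapped, and the log2 difference was 0.01 with a 95% interval of -0.47 to 0.49 (limma adjusted p = 0.975). Mdm2, whose product degrades p53, had 33.91 and 29.73 RPKM in PRC1-CD, against 36.90 and 31.82 RPKM in PRC1-WT. These ranges overlapped too, with a log2 difference of -0.11 (interval -0.50 to 0.29, limma adjusted p = 0.686).

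Among the genes that halt the cell cycle, Cdkn1a had 2.54 and 3.86 RPKM in PRC1-CD libraries, against 1.13 and 0.72 RPKM in PRC1-WT libraries. Every PRC1-CD value lay above every PRC1-WT value, and the log2 change was 1.12 ± 0.22 (SE, n = 2 each; limma adjusted p = 0.0112). That call was lost with no filter on low values (limma adjusted p = 0.0714) and on leaving out PRC1-CD replicate 2 (0.0912), PRC1-WT replicate 1 (0.0567) or PRC1-WT replicate 2 (0.102). Btg2, which restrains the step from G1 to S phase, had 11.31 and 15.78 RPKM in PRC1-CD and 5.25 and 3.83 RPKM in PRC1-WT. The groups did not overlap, and Btg2 rose by 1.39 ± 0.23 on the log2 scale (limma adjusted p = 0.00516). Its call was lost with PRC1-WT replicate 2 left out (limma adjusted p = 0.0643), with PRC1-CD replicate 1 left out (0.0547) and with PRC1-CD replicate 2 left out (0.0970). Trp53inp1 (chr4:11156441-11174379), a p53 target whose product also acts in autophagy, had 28.97 and 25.34 RPKM in PRC1-CD, against 21.04 and 13.17 RPKM in PRC1-WT. Both PRC1-CD values were the higher ones, yet the log2 difference of 0.67 ± 0.23 did not pass the test (limma adjusted p = 0.0830). It did pass without PRC1-WT replicate 1 (adjusted p = 0.0487).

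Among the genes of cell death, Fas had 13.85 and 8.34 RPKM in PRC1-CD libraries, against 0.83 and 0.60 RPKM in PRC1-WT libraries. Fas thus stood far above wild type in both mutant libraries, with a log2 change of 2.78 ± 0.25 (limma adjusted p = 0.000529). Pmaip1 had 6.13 and 5.53 RPKM in PRC1-CD, against 0.12 and 0.10 RPKM in PRC1-WT. Its libraries agreed closely within each group, and the log2 change was 2.62 ± 0.17 (limma adjusted p = 0.000165). With a pseudocount of 0.1 in place of 1 the log2 change of Pmaip1 was 4.82 and that of Cdkn1a 1.69, since adding 1 compresses differences at low values. Bcl2l11 (chr2:128126038-128162547), which encodes the BH3-only protein BIM, had 3.78 and 5.13 RPKM in PRC1-CD and 3.15 and 2.22 RPKM in PRC1-WT, without overlap. The log2 difference of 0.57 ± 0.22 missed the threshold (limma adjusted p = 0.108). Bax, the effector that permeabilises the mitochondrial outer membrane, had 24.12 and 26.12 RPKM in PRC1-CD, against 26.98 and 29.70 RPKM in PRC1-WT (log2 difference -0.17, interval -0.54 to 0.21, limma adjusted p = 0.495). Bbc3 (chr7:16308398-16318334), the gene of PUMA, was listed at 0.06 and 0.02 RPKM in PRC1-CD and at 0 in both PRC1-WT libraries, and was too low to be tested.

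**Figure D2:**
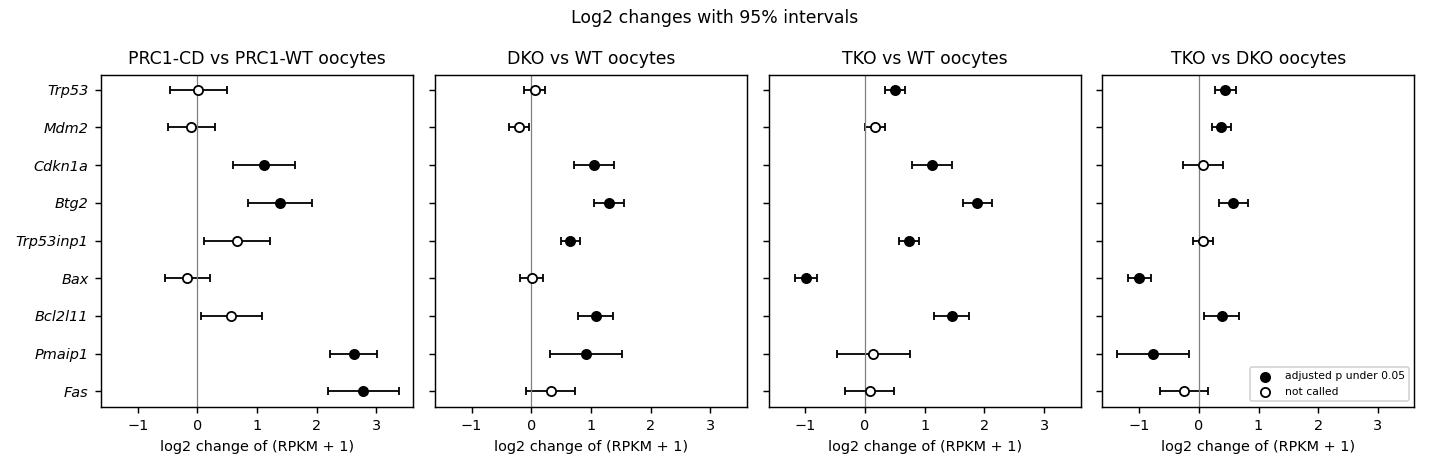
Log2 change of RPKM + 1 (horizontal axis) of the 9 tested members in the 4 oocyte comparisons, with 95% intervals from limma; filled points passed an adjusted p of 0.05 and open points did not. Btg2 is filled and right of 0 in all 4 panels, Bax is left of 0 and filled in both TKO panels, and Fas is filled only for PRC1-CD.

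Markers of other cells moved in the same libraries. The 12 granulosa and cumulus markers summed to 41.51 and 47.57 RPKM in PRC1-CD, against 22.02 and 22.28 RPKM in PRC1-WT, and 3 of the 5 that could be tested were called higher. Of that sum Fshr gave 12.0 and 18.6 RPKM in PRC1-CD, against 0.50 to 0.60 RPKM in PRC1-WT. Cyp11a1 averaged 7.05 RPKM in PRC1-CD, against 2.52 RPKM in PRC1-WT, Kitl 2.16 against 1.25 RPKM, and Inha 1.63 against 0.29 RPKM. At lower levels Vim averaged 0.51 RPKM in PRC1-CD, against 0.06 RPKM in PRC1-WT, and Gja1 0.34 against 0.06 RPKM. Cyp19a1 averaged 17.2 RPKM in both groups. The defining marker Foxl2 had 0.03 to 0.10 RPKM in PRC1-CD and was listed at 0 in PRC1-WT, and Amh was listed at 0 in PRC1-CD and had 0.05 RPKM at most in PRC1-WT. The markers of the 2-cell stage summed to 387 and 394 RPKM in PRC1-CD, against 213 RPKM in both PRC1-WT libraries, and 1 RPKM was reached by 12726 and 13086 genes in PRC1-CD, against 11734 and 11637 in PRC1-WT. The 8 trophectoderm markers summed to 51.2 and 61.6 RPKM in PRC1-CD, against 21.7 and 22.2 RPKM in PRC1-WT. Of the 4 that could be tested 2 were called higher and 1 lower. Krt8 averaged 39.9 RPKM in PRC1-CD, against 1.43 RPKM in PRC1-WT, while Gata3 averaged 5.805 against 14.3 RPKM. The ovarian stroma and blood markers summed to 12.3 and 13.3 RPKM in PRC1-CD, against 9.37 and 11.1 RPKM in PRC1-WT. Fshr and Inha averaged under 1 RPKM in PRC1-WT, as did Eomes (0.10 RPKM, against 2.38 RPKM in PRC1-CD). These genes were tested only through PRC1-CD and could hardly be called lower. The counts of called markers are to be read with that limit, beside the all-gene shares given above. The part of the markers in the members' changes was not tested.

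In the second oocyte set, 5 of 9 members were higher and 1 was lower in TKO than in WT oocytes, and 5 were higher and 0 lower in DKO than in WT oocytes. Btg2, Trp53inp1, Bcl2l11 and Cdkn1a were higher in both mutants, Trp53 was higher and Bax lower in TKO oocytes, and Pmaip1 was higher in DKO oocytes. Among all 12873 genes tested, 31.2% were higher and 20.1% lower in TKO (25.2% and 24% after quantile normalization), and 17.5% were higher and 11.3% lower in DKO (14.4% and 16%). The median log2 change of the members was 0.50 in TKO and 0.66 in DKO, against 0.09 and 0.03 over all genes. Between TKO and DKO oocytes 4 members were higher and 2 lower in TKO, against 26.8% and 21.8% of all genes. Each mutant is set against the same 3 WT libraries, so the TKO and DKO values are not independent. Cdkn1a, Fas and Pmaip1 again averaged under 1 RPKM in WT and were tested through a mutant group only.

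The regulators differed between the mutants. Trp53 had 19.83, 20.29 and 19.14 RPKM in TKO libraries and 13.87, 13.69 and 15.25 RPKM in DKO libraries, against 13.73, 14.20 and 13.06 RPKM in WT libraries. Every TKO value lay above all DKO and WT values, and DKO overlapped WT. The log2 change was 0.50 ± 0.08 for TKO against WT (limma adjusted p = 0.000529) and 0.44 ± 0.08 for TKO against DKO (limma adjusted p = 0.00121), and the difference between DKO and WT was 0.06 (interval -0.12 to 0.23). Mdm2 had 38.50, 35.38 and 35.11 RPKM in TKO and 28.30, 28.00 and 26.81 RPKM in DKO, against 30.69, 31.17 and 34.60 RPKM in WT. WT lay between the mutants, without overlap on either side. Mdm2 was higher in TKO than in DKO by 0.38 ± 0.07 (limma adjusted p = 0.00227), while the differences of 0.17 between TKO and WT (limma adjusted p = 0.0769) and of -0.21 between DKO and WT (limma adjusted p = 0.0628) did not pass. The DKO value did pass as lower after quantile normalization (0.0410), after median-ratio scaling (0.0194) and in a fit of DKO and WT alone (0.0452).

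The targets that act on the cell cycle and on stress were above WT in both mutants. Btg2 had 21.25, 18.17 and 20.87 RPKM in TKO and 13.66, 12.85 and 12.89 RPKM in DKO, against 4.06, 4.63 and 5.57 RPKM in WT. The groups did not overlap at all, with TKO above DKO and DKO above WT. Btg2 rose by 1.88 ± 0.11 in TKO (limma adjusted p = 1.34e-06) and by 1.3 ± 0.11 in DKO (limma adjusted p = 2.94e-05), and TKO exceeded DKO by 0.58 ± 0.11 (limma adjusted p = 0.00198). Cdkn1a had 3.04, 3.10 and 2.29 RPKM in TKO and 2.59, 2.23 and 3.03 RPKM in DKO, against 0.98, 0.81 and 0.48 RPKM in WT. The mutants overlapped each other and both lay above WT, with log2 changes of 1.12 ± 0.15 in TKO (limma adjusted p = 0.000222) and 1.05 ± 0.15 in DKO (limma adjusted p = 0.000725). With a pseudocount of 0.1 these changes were 1.80 in TKO and 1.70 in DKO. The interval of the Cdkn1a difference between TKO and DKO was -0.26 to 0.41. Trp53inp1 had 20.40, 22.92 and 22.66 RPKM in TKO and 20.48, 21.44 and 20.59 RPKM in DKO, against 12.74, 12.81 and 12.99 RPKM in WT. It also separated both mutants from WT, by 0.73 ± 0.07 in TKO (limma adjusted p = 4.01e-05) and 0.66 ± 0.07 in DKO (limma adjusted p = 0.000172), with an interval of -0.09 to 0.24 between TKO and DKO.

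The genes of cell death did not move as a group. Bax had 13.60, 14.61 and 12.26 RPKM in TKO and 29.85, 27.91 and 26.08 RPKM in DKO, against 27.42, 28.96 and 26.85 RPKM in WT. All TKO values lay far below the others, and DKO overlapped WT. The log2 change of Bax was -0.99 ± 0.09 for TKO against WT (limma adjusted p = 1.59e-05) and -1.0 ± 0.09 for TKO against DKO (limma adjusted p = 2.06e-05), whereas DKO differed from WT by 0.01 (interval -0.18 to 0.20). Bcl2l11 had 8.52, 6.88 and 5.87 RPKM in TKO and 5.06, 5.49 and 4.96 RPKM in DKO, against 1.83, 2.22 and 1.74 RPKM in WT. Both mutants stood above WT, and the BIM gene rose by 1.46 ± 0.13 in TKO (limma adjusted p = 2.03e-05) and by 1.08 ± 0.13 in DKO (limma adjusted p = 0.000276). TKO exceeded DKO by 0.38 ± 0.13 (limma adjusted p = 0.0369), a call that was lost in a fit of TKO and DKO alone (0.0623), with no filter (0.0724) and without each of 5 libraries, DKO replicates 1, 2 and 3 and TKO replicates 1 and 2 (limma adjusted p of 0.0816, 0.0592, 0.0992, 0.109 and 0.0561).

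Pmaip1 had 0.07, 0.46 and 0.16 RPKM in TKO and 2.50, 0.64 and 0.58 RPKM in DKO, against 0.15, 0.05 and 0.12 RPKM in WT. DKO lay above the other groups, mostly through replicate 1, and TKO overlapped WT. Its log2 change in DKO was 0.92 ± 0.27 (limma adjusted p = 0.0298), and 2.44 with a pseudocount of 0.1. TKO was below DKO by -0.77 ± 0.27 (limma adjusted p = 0.0375), and by -1.91 with a pseudocount of 0.1. Without DKO replicate 1 the mean fell under 1 RPKM in every group and Pmaip1 was no longer tested. The DKO call was also lost with no filter (0.0697), after quantile normalization (0.111) and without WT replicate 1, 2 or 3 (limma adjusted p of 0.0659, 0.0841 and 0.0766). The call for TKO against DKO was lost with no filter (0.0859), after quantile normalization (0.0971), in a fit of TKO and DKO alone (0.0712) and without TKO replicate 1 (0.106) or 3 (0.0917). Fas had 0.58, 1.20 and 1.28 RPKM in TKO and 1.06, 1.44 and 1.64 RPKM in DKO, against 1.19, 0.56 and 0.97 RPKM in WT, and these ranges overlapped. The Fas log2 difference was 0.08 in TKO (limma adjusted p = 0.742) and 0.33 in DKO (limma adjusted p = 0.211). Bbc3 was listed at 0 in all 9 libraries.

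By level per length, Mdm2 and Bax led the members in WT oocytes, with means of 32.2 ± 2.13 and 27.7 ± 1.09 RPKM (SD, n = 3). Trp53 followed with 13.7 ± 0.573 RPKM and Trp53inp1 with 12.8 ± 0.129 RPKM, then Btg2 with 4.75 ± 0.763 RPKM and Bcl2l11 with 1.93 ± 0.255 RPKM. Fas, with 0.907 ± 0.320 RPKM, and Cdkn1a, with 0.757 ± 0.254 RPKM, overlapped, and Pmaip1 stood at 0.107 ± 0.0513 RPKM.

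Other genes of these pathways were counted from a list of 80, of which 59 were tested in each oocyte set. Of these 9 passed as higher and 1 as lower in PRC1-CD oocytes. In TKO oocytes 21 were higher and 10 lower than in WT, and in DKO oocytes 15 were higher and 6 lower. Between TKO and DKO 16 were higher and 11 lower in TKO. In PRC1-CD, in TKO against WT and in TKO against DKO these shares lie near those of all genes given above. In DKO against WT the higher share lies above the 17.5% of all genes and the lower share near their 11.3%. That difference was not tested. The median log2 change of the list was 0.04 in PRC1-CD, 0.16 in TKO and 0.04 in DKO, against 0.04, 0.09 and 0.03 over all genes. A gene averaging under 1 RPKM in wild type was tested only because a mutant group reached 1 RPKM, and it could hardly be called lower. Such genes gave 4 of the 9 higher calls in PRC1-CD, 7 of the 21 in TKO and 7 of the 15 in DKO, so the balance of higher and lower calls is no result about the list. The 20 tested targets of p53 had 5 higher and 0 lower in PRC1-CD, 13 higher and 2 lower in TKO, and 8 higher and 1 lower in DKO, and 2, 4 and 4 of these higher calls were of genes under 1 RPKM in wild type. The 13 or 14 tested regulators of p53 had 0 higher and 1 lower in PRC1-CD, 1 higher and 4 lower in TKO, and 1 higher and 4 lower in DKO. The counts of targets and regulators are to be read beside the same all-gene shares. Whether they differ from those shares was not tested.

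Bid, a BH3-only gene that links death receptors to BAX, had 7.02 and 6.64 RPKM in PRC1-CD, against 0.24 and 0.16 RPKM in PRC1-WT. In the second set it had 1.68, 0.93 and 0.43 RPKM in TKO and 6.35, 5.11 and 5.12 RPKM in DKO, against 0.24, 0.10 and 0.20 RPKM in WT. Each of these mutant groups lay wholly above its wild type, and TKO lay below DKO. The log2 change was 2.71 ± 0.17 in PRC1-CD (limma adjusted p = 0.000157) and 2.46 ± 0.20 in DKO (limma adjusted p = 2.34e-05), while TKO was below DKO by -1.74 ± 0.20 (limma adjusted p = 0.000112). Bid averaged 0.20 RPKM in PRC1-WT and 0.18 RPKM in WT, so it was tested only through the mutants in which it is high. Gadd45a, a DNA damage-inducible growth arrest gene, had 7.78 and 10 RPKM in PRC1-CD, against 2.44 and 2.83 RPKM in PRC1-WT. It had 12.77, 17.45 and 12.39 RPKM in TKO and 8.23, 5.90 and 5.19 RPKM in DKO, against 1.90, 2.18 and 1.97 RPKM in WT. No mutant library overlapped wild type, and Gadd45a rose by 1.44 ± 0.20 in PRC1-CD, by 2.32 ± 0.17 in TKO and by 1.28 ± 0.17 in DKO (limma adjusted p of 0.00244, 4.65e-06 and 0.000395). The PRC1-CD call was lost without PRC1-CD replicate 2 (adjusted p = 0.0537).

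The stress kinase genes Plk2 and Plk3 rose in all 3 mutants against wild type. Plk2 changed by 1.92 ± 0.18 in PRC1-CD, 1.02 ± 0.20 in TKO and 1.05 ± 0.20 in DKO, and Plk3 by 1.49 ± 0.22, 1.43 ± 0.13 and 1.75 ± 0.13 in the same order. Plk2 averaged 0.39 RPKM in PRC1-WT and 0.70 RPKM in WT, and Plk3 0.92 RPKM in WT, so these tests too were made only because mutants reached 1 RPKM. The same holds for Perp in the second set (0.80 RPKM in WT), for Sesn1 in both sets (0.37 RPKM in PRC1-WT, 0.32 RPKM in WT) and for Tradd (0.72 RPKM in WT). For Plk3 in PRC1-CD the call was lost without PRC1-CD replicate 2 (limma adjusted p = 0.0636). Perp, a membrane protein gene induced in p53-dependent apoptosis, rose by 1.53 ± 0.18 in PRC1-CD and 0.81 ± 0.16 in DKO. Sesn1, an antioxidant sestrin, rose by 0.83 ± 0.22 in TKO and 1.08 ± 0.22 in DKO. Ppm1d, the WIP1 phosphatase that switches p53 signalling off, rose by 0.94 ± 0.10 in TKO, and the p53-induced gene Ei24 by 1.26 ± 0.13 in TKO.

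The caspase gene Casp6 and Tradd, a death receptor adaptor, rose by 1.19 ± 0.21 and 1.12 ± 0.11 in DKO, and both were lower in TKO than in DKO, by -1.51 ± 0.21 and -0.86 ± 0.11. TKO also exceeded DKO for Gadd45a by 1.04 ± 0.17, for Ei24 by 1.03 ± 0.13 and for the checkpoint kinase gene Atr by 0.67 ± 0.10, and lay below it for Apaf1, the scaffold of the apoptosome, by -0.61 ± 0.20 and for the nuclease gene Aen by -0.58 ± 0.10. The Apaf1 call was lost under 6 of 12 alternatives, without DKO replicates 2 or 3 and TKO replicates 1 or 2 among them (limma adjusted p up to 0.112). Trp53bp1, which relays DNA breaks, was lower in PRC1-CD by -0.96 ± 0.18, a call lost without PRC1-WT replicate 1, PRC1-CD replicate 1 or PRC1-CD replicate 2 (limma adjusted p up to 0.121). Bik, a BH3-only gene, had 43.91, 8.82 and 7.43 RPKM in TKO, against 49.91, 47.39 and 49.08 RPKM in WT. TKO replicate 1 stood close to WT, and the log2 change of -1.68 ± 0.60 (limma adjusted p = 0.0376) was lost under 6 of 12 alternatives, among them without TKO replicate 2 or 3 and without any 1 of the WT libraries. In DKO, Bik had 33.71, 10.51 and 10 RPKM, replicate 1 again the highest. That log2 difference from WT, -1.60 ± 0.60, did not pass (limma adjusted p = 0.0705).

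**Figure D3:**
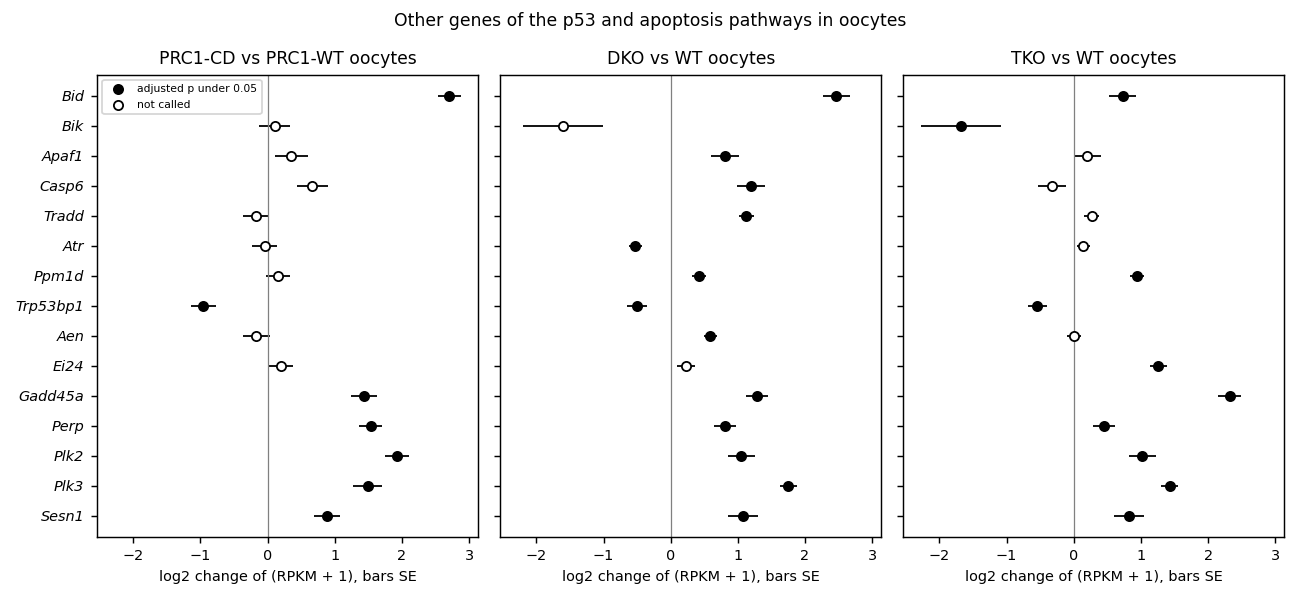
Log2 change of RPKM + 1 with SE (horizontal axis) of those pathway genes reported here, outside the 10 members, that ranked among the 8 largest called changes of an oocyte comparison, in 3 of the comparisons; filled points passed an adjusted p of 0.05. Gadd45a, Plk2, Plk3, Perp, Sesn1 and Bid are filled and right of 0 in all 3 panels.

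A further 2 genes were chosen after their values were seen. Trp63, the gene of the oocyte sensor TAp63, averaged 6.75 ± 0.580 RPKM in PRC1-CD and 6.40 ± 0.163 RPKM in PRC1-WT (SD, n = 2 each). It averaged 4.93 ± 0.840 RPKM in TKO and 5.76 ± 0.728 RPKM in DKO, against 5.50 ± 0.490 RPKM in WT, and passed the test in no comparison (limma adjusted p of 0.817, 0.393 and 0.781 against wild type). Mdm4, which holds p53 inactive, was abundant at 1008 ± 182 RPKM in TKO and 1171 ± 58.3 RPKM in DKO, against 1663 ± 79.9 RPKM in WT (SD, n = 3 each). Its log2 change was -0.74 ± 0.11 in TKO (limma adjusted p = 0.000338) and -0.51 ± 0.11 in DKO (limma adjusted p = 0.00591), and TKO and DKO did not pass against each other (-0.23 ± 0.11, limma adjusted p = 0.0972). In the first set Mdm4 averaged 1098 ± 280 RPKM in PRC1-CD and 1212 ± 22.3 RPKM in PRC1-WT (SD, n = 2 each), a log2 difference of -0.17 ± 0.21 that did not pass (limma adjusted p = 0.609).

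Markers of other cells were summed here too. The granulosa and cumulus list summed to 24.2 to 28.5 RPKM in TKO and 19.6 to 22.2 RPKM in DKO, against 25.9 to 29.5 RPKM in WT. Of its 5 tested genes 1 was called higher and 1 lower in TKO than in WT, and 2 higher and 1 lower in DKO than in WT. Within it Fshr averaged 6.41 RPKM in TKO and 0.20 RPKM in DKO, against 0.48 RPKM in WT, Inha 0.53 RPKM in TKO and 1.04 RPKM in DKO, against 0.20 RPKM in WT, and Cyp19a1 16.2 RPKM in TKO and 15.1 RPKM in DKO, against 23.3 RPKM in WT. The 2-cell list summed to 206 to 221 RPKM in TKO and 241 to 244 RPKM in DKO, against 171 to 211 RPKM in WT. Most of that sum was Tcstv1, with means of 173 RPKM in TKO and 184 RPKM in DKO, against 138 RPKM in WT. Zscan4d averaged 4.19 RPKM in TKO and 1.17 RPKM in DKO, against 7.73 RPKM in WT, and Zscan4f 7.57 and 3.09, against 10.6 RPKM. Of its 5 tested genes 1 was called higher and 2 lower in TKO than in WT, and 2 higher and 3 lower in DKO. The pluripotency list summed to 59.4 to 76.7 RPKM in TKO and 42.8 to 47.8 RPKM in DKO, against 34.8 to 36.3 RPKM in WT. Of its 4 tested genes 3 were called higher and 1 lower in TKO, and 2 higher and 0 lower in DKO. Klf4 averaged 25.6 RPKM in TKO and 9 RPKM in DKO, against 1.62 RPKM in WT. Sox2 averaged 5.03 RPKM in TKO and 1.2 RPKM in DKO, against 0.14 RPKM in WT. Pou5f1 averaged 24.5 RPKM in TKO and 17.9 RPKM in DKO, against 16.6 RPKM in WT. Esrrb averaged 11.3 RPKM in TKO and 16.48 RPKM in DKO, against 16.54 RPKM in WT. The trophectoderm list summed to 26.7 to 34.7 RPKM in TKO and 19.6 to 25.7 RPKM in DKO, against 15.01 to 17.89 RPKM in WT. Of its 3 tested genes 2 were called higher and 1 lower in each mutant. Krt8 averaged 13.0 RPKM in TKO and 8.30 RPKM in DKO, against 0.25 RPKM in WT. Gata3 averaged 5.98 RPKM in TKO and 3.91 RPKM in DKO, against 11.1 RPKM in WT. The ovarian stroma and blood list summed to 11.5 to 16.1 RPKM in TKO and 6.19 to 8.34 RPKM in DKO, against 9.39 to 10.7 RPKM in WT. Foxl2, which defines granulosa cells, reached 0.02 RPKM at most in TKO and was listed at 0 in all DKO and WT libraries. Fshr, Inha, Sox2 and Krt8 averaged under 1 RPKM in WT and were tested only through a mutant, so they could hardly be called lower. The marker counts here are to be read with that limit, beside the all-gene shares given above. The part of these marker levels in the members' changes was not tested.

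In morulae none of the 10 members passed the test in any of the 3 comparisons. Of 13056 genes tested, 0.176% were called higher and 0.391% lower in matTKO than in WT (0.46% and 0.59% after quantile normalization), 0.329% higher and 1.41% lower in matDKO than in WT (0.789% and 1.16%), and 0.046% higher and 0.023% lower in matTKO than in matDKO. At an unadjusted p under 0.05 the limma fit had 2 members between matTKO and WT, Cdkn1a and Bax, and 0 in each of the other comparisons. Over all genes 12.9% were under that p between matTKO and WT, 17.3% between matDKO and WT and 6.64% between matTKO and matDKO, so 2 of 10 members is near the background. The median log2 change of the members was 0.12 in matTKO and -0.02 in matDKO, against -0.06 and -0.09 over all genes.

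**Figure D4:**
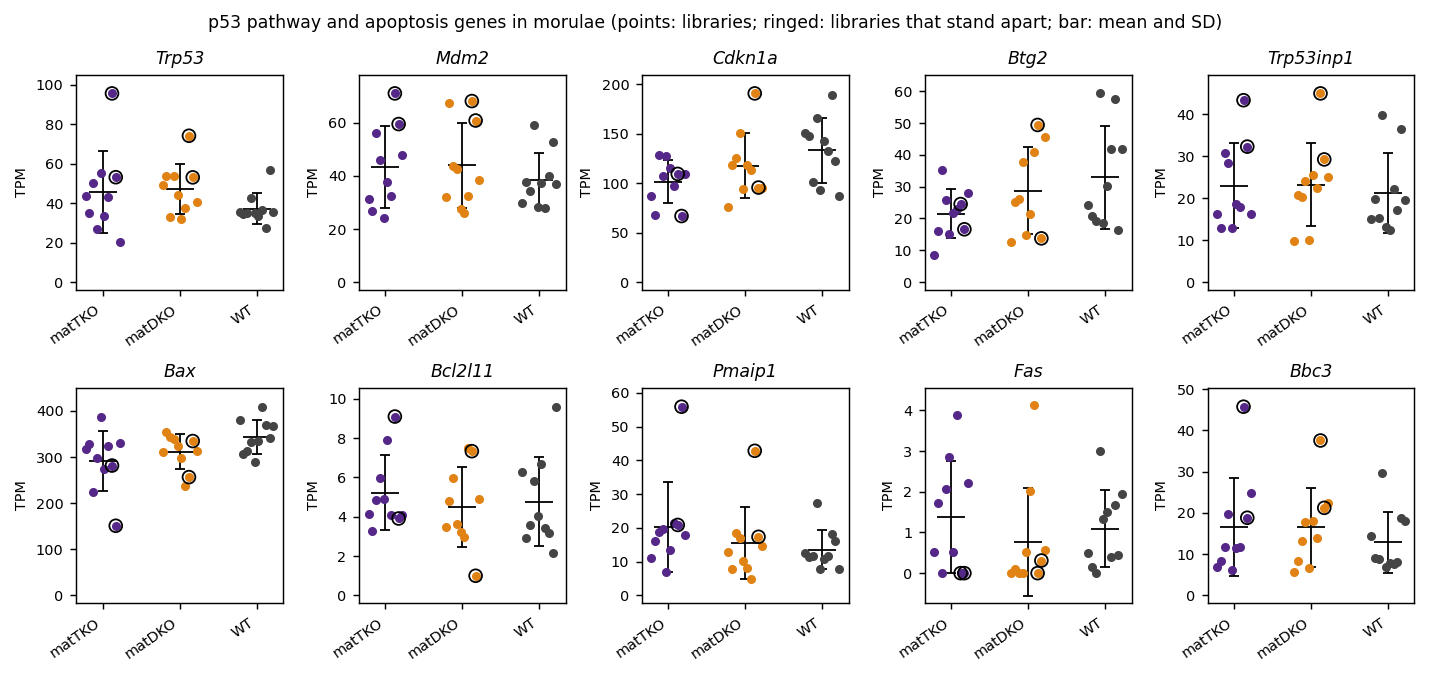
TPM (vertical axis) of the 10 members in each morula library, with matTKO, matDKO and WT from left to right; points are libraries, ringed points are the 4 libraries that stand apart from their group, and bars give the mean and SD. The 3 genotypes overlap for every member, and ringed points are near the top of Trp53, Mdm2, Bbc3, Pmaip1 and Trp53inp1.

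Before these values, 4 of the 30 morula libraries stand apart. The median correlation of matTKO replicates 8 and 9 and matDKO replicates 8 and 9 with their own group was 0.878 to 0.900, below the limit of 0.909 set from the quartiles of all morulae. These libraries also had few transcripts of 8 trophectoderm markers, with sums of 269 and 873 TPM in the matTKO and 514 and 152 TPM in the matDKO libraries. Other libraries with low sums, matTKO replicate 5 with 983 TPM, matDKO replicates 6 and 7 with 633 and 792 TPM and WT replicate 9 with 878 TPM, did not stand apart by correlation. The group medians were 1466 TPM in matTKO and 1486 TPM in matDKO, against 2504 TPM in WT. Krt8 and Krt18 made up most of the sum in WT, averaging 942 and 1228 TPM. In the libraries that stand apart these genes together gave 169 and 688 TPM in matTKO and 366 and 51.1 TPM in matDKO. Without the 4 libraries the members again had 0 calls in each comparison.

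Trp53 ranged over 20.27 to 95.70 TPM in matTKO (median 43.57) and 32.20 to 74.23 TPM in matDKO (median 46.70), against 27.23 to 57.06 TPM in WT (median 35.29). The ranges overlapped, with log2 differences of 0.20 in matTKO (interval -0.20 to 0.59) and 0.31 in matDKO (interval -0.08 to 0.71). Mdm2 ranged over 24.10 to 71.04 TPM in matTKO (median 41.80) and 26.16 to 68.16 TPM in matDKO (median 40.55), against 28.08 to 59.16 TPM in WT (median 37.12).

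Cdkn1a ranged over 66.81 to 128.97 TPM in matTKO (median 108.10) and 76.36 to 190.74 TPM in matDKO (median 115.89), against 87.35 to 189.31 TPM in WT (median 137.80). Its medians were lower in both mutants while the ranges overlapped. The Cdkn1a difference was -0.38 ± 0.16 between matTKO and WT (SE, n = 10 each; limma p = 0.0240, adjusted p = 0.293) and -0.18 between matDKO and WT (adjusted p = 0.578). Btg2 ranged over 8.67 to 35.39 TPM in matTKO (median 22.38) and 12.73 to 49.39 TPM in matDKO (median 25.66), against 16.45 to 59.30 TPM in WT (median 27.20). The difference between matTKO and WT was -0.54 with an interval of -1.09 to 0.02 (limma adjusted p = 0.408), and overlap was wide. Trp53inp1 had medians of 18.20 TPM in matTKO and 23.28 TPM in matDKO, against 18.46 TPM in WT.

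Bax ranged over 151.00 to 386.76 TPM in matTKO (median 307.15) and 236.90 to 353.76 TPM in matDKO (median 318.54), against 290.01 to 408.99 TPM in WT (median 336.99). The lowest value was that of a library that stands apart, and the difference of -0.27 ± 0.12 between matTKO and WT did not pass (limma p = 0.0348, adjusted p = 0.340). Bbc3, the PUMA gene, was listed above 0 in all 30 morulae, at 6.11 to 45.76 TPM in matTKO (median 11.77) and 5.60 to 37.57 TPM in matDKO (median 15.82), against 6.80 to 29.74 TPM in WT (median 8.99). Pmaip1 ranged over 6.94 to 55.87 TPM in matTKO (median 18.40) and 4.87 to 42.82 TPM in matDKO (median 13.69), against 7.85 to 27.42 TPM in WT (median 11.56). In both BH3-only genes the groups overlapped, and the matTKO differences from WT had intervals of -0.42 to 0.91 for Bbc3 and -0.15 to 1.05 for Pmaip1. Bcl2l11 had medians of 4.50 TPM in matTKO and 4.24 TPM in matDKO, against 3.82 TPM in WT. Fas was listed at 0 in 3 matTKO, 4 matDKO and 1 WT library, and reached 3.88, 4.14 and 2.99 TPM at most in matTKO, matDKO and WT.

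The libraries that stand apart had more of several members. Trp53 had 53.13 to 95.70 TPM in the 4 (median 63.72), against 20.27 to 57.06 TPM in the other 26 (median 35.91). Mdm2 had 59.50 to 71.04 TPM in the 4, against 24.10 to 67.45 TPM in the other 26. Trp53inp1 had a median of 37.77 TPM in the 4 and 19.10 TPM in the others, Bbc3 29.41 and 11.63 TPM, and Pmaip1 31.85 and 12.59 TPM. Cdkn1a overlapped widely, with medians of 102.50 and 116.79 TPM. The libraries were singled out by all genes together, so no test was made, and the part of the trophectoderm markers in these levels was not tested.

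From the list of 80 pathway genes 68 were tested in morulae. They had 1 call in each comparison with WT, while over all genes 0.391% were called lower in matTKO and 1.41% in matDKO. A single call is thus no result about the list as a whole. Aifm1, which encodes a mitochondrial flavoprotein released in caspase-independent death, was the only call, lower in matTKO and in matDKO than in WT. It had 10.94 to 30.63 TPM in matTKO (median 16.10) and 9.14 to 33.93 TPM in matDKO (median 21.88), against 26.25 to 46.15 TPM in WT (median 31.51). Most mutant libraries lay below the WT range, with some overlap. The log2 change was -0.86 ± 0.19 in matTKO (limma adjusted p = 0.0336) and -0.73 ± 0.19 in matDKO (limma adjusted p = 0.0455). Without the libraries that stand apart it was -0.74 ± 0.20 (adjusted p = 0.0572) and -0.72 ± 0.20 (adjusted p = 0.0509), and the only list genes called were then Ephx1, higher in matTKO, and Chek1, lower in matDKO. The call of Aifm1 was also lost with a pseudocount of 0.1 and with no filter in both comparisons (limma adjusted p up to 0.0585 in matTKO and 0.0879 in matDKO).

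Morulae and oocytes sit in separately normalised tables, so their levels can be set side by side only by rank. Cdkn1a stood at the 96.8 percentile of all symbols in WT morulae and at the 66.1 percentile in WT oocytes, and Bbc3, listed at 0 in WT oocytes, stood at the 84.5 percentile in WT morulae.

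With 30 morulae the members can be followed across libraries. After the mean of each genotype was removed, Btg2 varied with Cdkn1a, with Pearson r = 0.563 and Spearman rho = 0.541 (two-sided permutation p = 0.00212 and 0.00340, adjusted over the 9 members to 0.0191 and 0.0306). The relation held the same sign within each genotype, with r = 0.509 in matTKO, 0.693 in matDKO and 0.468 in WT. It was 0.462 without the 2 libraries farthest from the median of Cdkn1a. Without the 4 libraries that stand apart r was 0.502, and the adjusted permutation p of 0.126 no longer passed. None of the other 8 members passed. Trp53inp1 came next with r = 0.368 and rho = 0.259 (permutation p = 0.0551 and 0.180, adjusted 0.248 and 0.379), and r was 0.168 without the 2 farthest libraries. Trp53 itself had r = 0.085. Pmaip1 had r = -0.537 in matTKO and 0.494 in matDKO, against 0.740 in WT, a difference that was not tested. In matTKO replicate 9, which stands apart, Pmaip1 was the highest of its group (55.87 TPM) and Cdkn1a the lowest (66.81 TPM). In matDKO replicate 8, which also stands apart, both genes were the highest of their group (42.82 and 190.74 TPM). The Pmaip1 values of r in these genotypes may thus rest on single libraries. All points share the fixed total of their library.

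**Figure D5:**
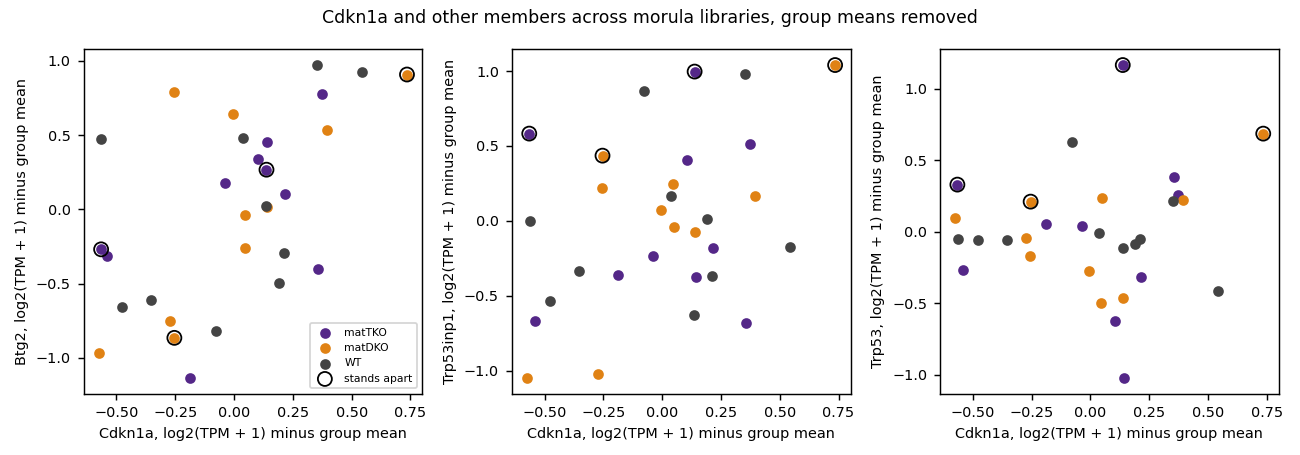
Log2(TPM + 1) minus the genotype mean for Cdkn1a (horizontal axis) against Btg2, Trp53inp1 and Trp53 (vertical axes) in 30 morula libraries, coloured by matTKO, matDKO and WT; ringed points stand apart. Btg2 runs upward with Cdkn1a at r = 0.563, while Trp53 shows r = 0.085 and its highest point is a ringed matTKO library.

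The 5 genes whose pattern was most like that of Cdkn1a among 13055 others, by Pearson r over the same 30 libraries, were Nr3c1 (r = 0.691), Rbm34 (r = 0.609), Bhlhe41 (r = 0.591), Gfer (r = 0.585) and Nectin4 (r = 0.575). Btg2 held rank 8 in that order, Trp53inp1 rank 305 and Mdm2 rank 687. These r values are a description of the same libraries and were not tested.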

How the data were processed

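Polyadenylated RNA was made into cDNA with SMART-Seq v4 and into libraries with Nextera XT, per the labels' protocols. Reads were trimmed, aligned and counted by the authors: the submitters' processing notes name featureCounts 1.6.0, RSEM 1.3.1, STAR in versions 2.7.3 and 2.7.6, and Trim Galore 0.6.4, with the builds GRCm38 and mm10, but not what each was used for. The authors deposited RPKM values for both oocyte sets. The deposited morula table is titled RPKM, but its libraries sum to 999421 to 999922, and its values were therefore taken to be TPM. The depth is unknown, so no counting interval was made. Symbols turned into dates, 27 in each oocyte table, were dropped, and 0 columns were left unused. Cop1 was matched as Rfwd2.

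The members, pathway genes and marker lists were chosen with earlier results of these data known. Tests were two-sided and made within a table, all of whose groups entered the fit, by limma 3.58.1 under R 4.3.3 with a trended eBayes on log2(value + 1). Genes whose mean stayed under 1 in every group were left out. P-values were adjusted by Benjamini-Hochberg over all genes tested, and the threshold was 0.05. Errors of changes are SEs and intervals are 95% from limma; errors of levels are SDs. Fold changes on this scale understate those of low genes. Correlations used 100000 permutations within genotypes. The code was tested on simulated data. In each comparison at most 8 called pathway genes, with the largest changes, were named, besides all members and the 5 genes most like Cdkn1a; some pathway genes, counted in the list, are not reported here by name. Sequences are from RefSeq (GRCm38.p6), exon overlaps from GENCODE on GRCm38. Alternatives were another pseudocount, no filter, other scalings, a replicate block, only the groups compared, leaving out libraries and, chosen after seeing the data, leaving out the morulae that stand apart.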

Additional observations from a re-analysis of the deposited data

Results flagged for a closer look

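Among 30 combinations of member and genotype in morulae, 10 had a highest library far from the nearest other library. Chance gives about 1 in 20 where values are normally distributed and independent; the TPM values were tested untransformed, several of the 10 come from the same library, and the chance rate for these data was not established. Of the 10, 6 belong to libraries that stand apart. Trp53 had 95.70 TPM in matTKO replicate 8, 74.23 TPM in matDKO replicate 8 and 57.06 TPM in WT replicate 9. Bbc3 had 45.76 TPM in matTKO replicate 8, 37.57 TPM in matDKO replicate 8 and 29.74 TPM in WT replicate 4. Pmaip1 had 55.87 TPM in matTKO replicate 9, 42.82 TPM in matDKO replicate 8 and 27.42 TPM in WT replicate 4. Fas had 4.14 TPM in matDKO replicate 7.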

How the results depend on the processing

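No member's call changed direction under any alternative; 21 values of uncalled members changed sign while staying uncalled. In PRC1-CD oocytes 2 to 4 members were called with 1 library left out, against 4 with all, and 2 each without PRC1-WT replicate 2 and without PRC1-CD replicate 2. Leaving out a library gave 6 called members in TKO and 4 to 5 in DKO against WT, and 4 to 5 between TKO and DKO. The number of members that varied with Cdkn1a was 1 as analysed, 2 after median-ratio scaling, where Trp53inp1 passed too (r = 0.488), and 0 without the libraries that stand apart. Over all genes, calls numbered 3059 in PRC1-CD and 1238 to 1543 with a library left out, and 3701 in DKO and 2421 without WT replicate 3. In morulae the 227 calls of matDKO were 93 with no filter and 607 with the replicate block. The 74 of matTKO were 21 with a pseudocount of 0.1, 32 with no filter, 137 after quantile normalization, 127 with only the groups compared and 183 both with the block and without the libraries that stand apart. The 9 between matTKO and matDKO were 5 with no filter, 4 with only the groups compared and 16 with the block. The cause of these shifts was not tested. The median log2 change of all genes in PRC1-CD, 0.04 as analysed, was -0.08 after quantile normalization and -0.07 after median-ratio scaling, and the calls of Fas, Pmaip1, Btg2 and Cdkn1a held there.

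The replicate number is not stated to mark a shared animal or day. After group means were removed, correlations of same-numbered libraries were -0.0477 to 0.109 in knockout oocytes and -0.167 to 0.569 in morulae (median 0.0708). Those of differently numbered libraries were -0.130 to 0.118 and -0.3455 to 0.451 (median 0.000415). In the catalytic-dead set, with 2 libraries a group, the same-number value of 0.0884 is by construction the reverse of the other, -0.0884. Whether same-numbered libraries share more than a number was not tested. With the replicate block 5 members were called in PRC1-CD, where Trp53inp1 was added (limma adjusted p = 0.0360), 6 in TKO and 5 in DKO against WT, 6 between TKO and DKO, and 0 in morulae. With 2 libraries a group, or unknown depth at values near 0 as for Bbc3 and Pmaip1, small differences could not be detected.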
